A study of Mus musculus with 28 samples.

Results

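The growth hormone axis was followed in mouse liver RNA through 10 genes. They are the growth hormone receptor Ghr, the receptor's kinase Jak2, the transcription factors Stat5a and Stat5b, the circulating products Igf1 and Igfals, the feedback inhibitors Socs2, Socs3 and Cish, and the transcriptional repressor Bcl6. The genes were chosen by symbol from a deposited table of 17792 genes in which each of the 10 has a row. The choice was made with earlier results of these data known. Values are FPKM, fragments scaled to transcript length and to the library's mapped fragments. All 10 members reached 1 FPKM in at least 3 libraries, the minimum for testing, as did 11213 of the 17792 genes.

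Growth hormone from the pituitary binds GHR on the hepatocyte, the associated kinase JAK2 phosphorylates STAT5A and STAT5B, and the STAT5 dimers move to the nucleus and switch on target genes. In liver these targets include Igf1, which encodes the endocrine growth factor IGF1, and Igfals, which encodes the subunit that holds IGF1 in a long-lived complex in blood. CIS (the product of Cish) and SOCS2 are STAT5 targets that turn the receptor signal off, SOCS3 does the same mainly for IL6 and STAT3 signals, and BCL6 is a repressor that can occupy STAT5 sites. Rodent growth hormone is released in pulses in males and more continuously in females, and many liver genes differ between the sexes through this pattern.

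The 28 libraries came from frozen livers of C57BL/6 mice labelled as male, wild type (WT) or carrying a macrophage-specific knockout of Pparg (KO). Pparg encodes the nuclear receptor PPARγ, and the sources used here do not name what drives the knockout. Mice received by gavage either 625 mg/kg body weight of DEHP, di(2-ethylhexyl) phthalate, a plasticizer, or 0.5% CMC, carboxymethyl cellulose, the vehicle control. Each combination of genotype and agent was taken at 28 days, with 3 libraries in each of the 4 groups, and at 90 days, with 4 libraries in each of the 4 groups. The labels give 12 mice for a group without saying which mice gave a library, so p-values measure only the spread between libraries.

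The libraries summed to 514267 to 547757 FPKM at 28 days and to 573429 to 647703 FPKM at 90 days, with 9738 to 10641 genes at 1 FPKM or more. Read totals are not in the table, so the depth behind a value is unknown. Against the male label, all 12 libraries of 28 days listed the X-inactivation transcript Xist at 26.7 to 41.0 FPKM and 4 Y-linked genes at a sum of 0. The 16 libraries of 90 days listed Xist at 0 to 0.02 FPKM and the Y-linked genes at sums of 28.3 to 38.1 FPKM. A difference between 28 and 90 days therefore cannot be told apart from one between the sexes. Lyz2, a myeloid gene whose locus is often used to drive macrophage knockouts, separated the genotypes at 38.5 to 120 FPKM in WT and 0.73 to 2.67 FPKM in KO, while Pparg in whole liver did not (1.51 to 7.65 FPKM in WT and 1.51 to 6.69 FPKM in KO). Exocrine pancreas transcripts reached 9565 to 40423 FPKM in 5 libraries of 90 days (KO DEHP replicates 1, 2 and 3, WT CMC replicate 4 and WT DEHP replicate 4), against at most 52.2 FPKM in the others. Sinusoidal endothelial markers were low in 3 libraries (WT CMC replicate 7 and WT DEHP replicate 5 at 28 days, KO DEHP replicate 4 at 90 days), at sums of 42.1 to 59.9 FPKM against at least 91.1 FPKM in the others.

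Promoter sequence is shown for 4 of the members: the feedback gene Cish, the repressor Bcl6, and the paired products Igfals and Igf1. The windows run from 250 bases before to 50 bases after an annotated gene start, 5′ to 3′ on the gene's strand, from RefSeq on GRCm38.p6. Capitals mark TTCNNNGAA, the core of the element that STAT5 binds, which is its own reverse complement and can overlap BCL6 sites. The windows lie at chr9:107296409-107296708 on the plus strand for Cish, chr16:23981234-23981533 on the minus strand for Bcl6, chr17:24877981-24878280 on the plus strand for Igfals and chr10:87860861-87861160 on the plus strand for Igf1.
Cish: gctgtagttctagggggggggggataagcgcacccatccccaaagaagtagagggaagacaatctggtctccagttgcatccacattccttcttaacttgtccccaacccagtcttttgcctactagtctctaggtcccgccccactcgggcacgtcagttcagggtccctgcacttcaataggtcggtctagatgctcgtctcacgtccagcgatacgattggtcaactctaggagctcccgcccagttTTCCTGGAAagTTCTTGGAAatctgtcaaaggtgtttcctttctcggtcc
Bcl6: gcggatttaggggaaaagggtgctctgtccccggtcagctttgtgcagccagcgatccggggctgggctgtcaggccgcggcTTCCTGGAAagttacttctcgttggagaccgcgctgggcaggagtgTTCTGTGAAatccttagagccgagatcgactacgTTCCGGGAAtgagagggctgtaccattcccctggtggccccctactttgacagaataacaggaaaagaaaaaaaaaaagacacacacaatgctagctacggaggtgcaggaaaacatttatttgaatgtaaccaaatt
Igfals: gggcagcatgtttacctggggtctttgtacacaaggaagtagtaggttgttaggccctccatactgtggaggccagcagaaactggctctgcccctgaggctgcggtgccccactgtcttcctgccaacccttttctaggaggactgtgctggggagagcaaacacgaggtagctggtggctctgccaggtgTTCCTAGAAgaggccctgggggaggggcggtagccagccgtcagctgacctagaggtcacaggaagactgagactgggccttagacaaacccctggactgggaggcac
Igf1: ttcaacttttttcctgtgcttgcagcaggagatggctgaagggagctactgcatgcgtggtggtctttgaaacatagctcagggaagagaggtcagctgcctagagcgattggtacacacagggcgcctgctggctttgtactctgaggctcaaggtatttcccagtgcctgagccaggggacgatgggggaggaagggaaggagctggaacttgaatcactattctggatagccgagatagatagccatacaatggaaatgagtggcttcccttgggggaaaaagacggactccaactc
Cish held 2 matches, at 1 and 12 bases from the start, and this Bcl6 window held 3. This Bcl6 window lies at a start inside the gene and has more matches than the other Bcl6 window. That other window, at the gene's 5′ end (chr16:23988803-23989102), held 1 match. A second Igfals window and the Socs3 window also held 1 match each, and the Igf1 window held none. Among 15 windows matched for 9 members, 6 windows of 4 members held the letters, against 8.3% of all 32851 windows. At least 2 matches were found in 0.457% of all windows and at least 3 in 0.0335%. AGGTCA repeated directly with 1 base between, the kind of element PPAR and RXR bind, was searched on both strands and found in 0 of the 15 windows and in 0.0396% of all windows. A match is a description of letters and not of a bound site.

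At 28 days the axis was lower under DEHP at the receptor and most of all at the circulating products. Both STAT5 genes were lower over both genotypes together, and neither passed the threshold in WT alone. Tests were made with limma on log2(FPKM + 1), with one estimate of spread over the 8 groups and Benjamini-Hochberg adjustment over all 11213 genes tested, and a gene was called at an adjusted p under 0.05. Over both genotypes, 5 of 10 members fell (Ghr, Stat5a, Stat5b, Igf1 and Igfals) and 0 rose, where 14.1% of all genes tested fell and 17.2% rose. Of all genes called, 54.9% were higher, and 43.0% were under upper quartile scaling, with the same 5 members called. The median change was -0.44 log2 over the members and -0.03 over all genes tested. Fold changes on this scale understate the change of low genes.

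**Figure D1:**
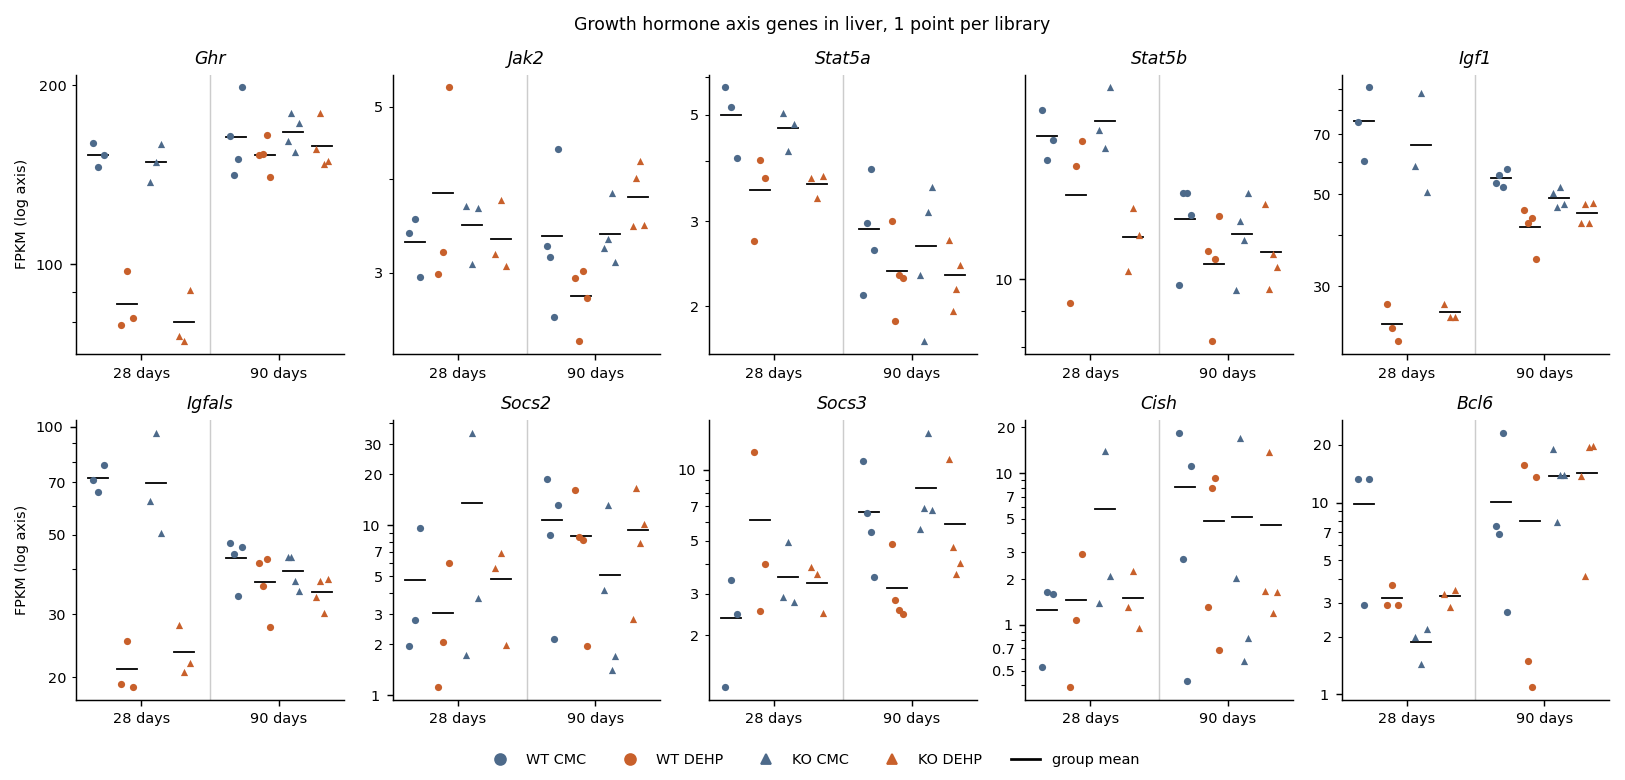
FPKM of each of the 10 genes in every library on a log axis, with 28 days on the left and 90 days on the right of each panel; blue is CMC, orange is DEHP, circles are WT, triangles are KO and black bars are group means. At 28 days the Ghr, Igf1 and Igfals libraries of DEHP lie below every CMC library (Igf1 22.1 to 27.2 against 50.7 to 90.8 FPKM), and Cish, Socs2 and Bcl6 spread widely inside groups.

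Ghr, at chr15:3317755-3583352 on the minus strand (GRCm38.p6), encodes the receptor. At 28 days its FPKM were 160, 146 and 152 in WT CMC and 79.1, 97.5 and 81.4 in WT DEHP. In KO mice they were 137, 148 and 159 under CMC and 75.7, 74.3 and 90.5 under DEHP. All 6 DEHP libraries were below all 6 CMC libraries. Ghr fell by 0.86 on the log2 scale over both genotypes (SE 0.080, limma adjusted p = 6.47e-09). The genotypes gave -0.83 in WT (adjusted p = 7.61e-06) and -0.88 in KO (adjusted p = 2.29e-06).

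At 90 days Ghr was 164, 141, 150 and 198 FPKM in WT CMC and 153, 153, 165 and 140 in WT DEHP. KO livers held 161, 179, 155 and 173 FPKM under CMC and 156, 179, 147 and 149 under DEHP. The groups overlapped, and Ghr was not called (-0.08 log2, 95% confidence interval -0.23 to 0.06, limma adjusted p = 0.478). Every 90-day library and every 28-day CMC library held more than 137 FPKM, so the 28-day DEHP libraries were the low ones of the series and the other groups were close together.

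Jak2, at chr19:29251803-29313095 on the plus strand, encodes the kinase that the receptor carries. It lay between 2.43 and 5.31 FPKM in all 28 libraries. Group means ran from 2.80 ± 0.26 FPKM (SD, n = 4, WT DEHP at 90 days) to 3.83 ± 1.28 FPKM (SD, n = 3, WT DEHP at 28 days). The highest library, 5.31 FPKM, was WT DEHP replicate 7 at 28 days. Jak2 was not called at 28 days (0.05 log2, 95% confidence interval -0.16 to 0.26, limma adjusted p = 0.771) nor at 90 days (-0.03, interval -0.21 to 0.15, adjusted p = 0.879).

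Stat5b and Stat5a lie 346 bp apart and on opposite strands, at chr11:100780731-100859004 (minus) and chr11:100859351-100885169 (plus). Their transcripts share 608 stretches of 50 identical bases, 14.7% of those of Stat5a and 11.1% of those of Stat5b, so the authors' quantification could have split reads between them. Stat5a also shares 72 exon bases with Stat3 on the opposite strand, and the sources used here do not give the strand setting. Stat5b was the higher of the pair in all 28 libraries, at 8.16 to 18.8 FPKM against 1.69 to 5.70 FPKM for Stat5a.

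For Stat5b, WT livers of 28 days held 17.4, 14.8 and 15.8 FPKM under CMC and 9.25, 14.5 and 15.8 under DEHP. KO livers held 16.3, 15.4 and 18.8 FPKM under CMC and 10.3, 12.6 and 11.6 under DEHP. The KO groups did not overlap, and the WT groups did. Stat5b fell by 0.40 on the log2 scale over both genotypes (SE 0.11, limma adjusted p = 0.00774). It was called in KO (-0.51, adjusted p = 0.0235) and not in WT (-0.29), and the difference between the genotypes was -0.22 (95% confidence interval -0.69 to 0.25, adjusted p = 1). The KO call was lost without KO CMC replicate 7 (adjusted p = 0.109), without KO DEHP replicate 5 (0.101) and in a fit of the 28-day libraries alone (0.0592).

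For Stat5a, WT livers of 28 days held 5.70, 5.18 and 4.07 FPKM under CMC and 2.73, 4.03 and 3.70 under DEHP, and KO livers held 5.05, 4.21 and 4.79 under CMC and 3.69, 3.35 and 3.72 under DEHP. All 6 DEHP libraries were below all 6 CMC libraries, by a margin of 4.03 against 4.07 FPKM at the closest. Stat5a fell by 0.36 on the log2 scale over both genotypes (SE 0.12, limma adjusted p = 0.027). It was not called in WT alone (-0.42, limma adjusted p = 0.113) or in KO alone (-0.31, adjusted p = 0.237). Leaving out any of 6 of the 12 libraries ended the call, with adjusted p of 0.0506 to 0.0794 (KO CMC replicates 5 and 7, KO DEHP replicate 6, WT CMC replicates 5 and 6, WT DEHP replicate 5). At 90 days neither gene was called, with -0.16 log2 for Stat5a (adjusted p = 0.366) and -0.14 for Stat5b (adjusted p = 0.403) in limma. Both genes were lower at 90 than at 28 days, with means over all libraries of 2.56 ± 0.61 FPKM (SD, n = 16) against 4.19 ± 0.85 (SD, n = 12) for Stat5a and 11.3 ± 1.54 (SD, n = 16) against 14.4 ± 2.89 (SD, n = 12) for Stat5b, a difference that was not tested and cannot be told apart from the sex transcripts.

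Igf1, at chr10:87858265-87937047 on the plus strand, encodes the growth factor. At 28 days WT CMC livers held 74.9, 60.2 and 90.8 FPKM and WT DEHP livers 27.1, 23.8 and 22.1. KO livers held 58.6, 87.9 and 50.7 FPKM under CMC and 27.2, 25.3 and 25.3 under DEHP. The highest DEHP library was well below the lowest CMC library. Igf1 fell by 1.42 on the log2 scale over both genotypes (SE 0.10, limma adjusted p = 1.05e-10), with -1.58 in WT (adjusted p = 3.09e-08) and -1.27 in KO (adjusted p = 5.1e-07). The genotypes' responses differed by 0.31 (95% confidence interval -0.12 to 0.73, adjusted p = 1).

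At 90 days Igf1 was 53.3, 55.8, 52.2 and 57.6 FPKM in WT CMC and 45.8, 42.6, 43.8 and 34.9 in WT DEHP, and the groups did not overlap. KO livers held 50.3, 46.7, 52.0 and 47.3 FPKM under CMC and 42.6, 47.5, 42.6 and 47.7 under DEHP, and these overlapped. The change over both genotypes was -0.25 log2 (SE 0.090, 95% confidence interval -0.44 to -0.07) and was not called (limma adjusted p = 0.0588). WT alone gave -0.39 (adjusted p = 0.0657) and KO alone -0.12 (adjusted p = 0.701), and the difference between them was 0.27 (interval -0.10 to 0.64, adjusted p = 0.957). Over both genotypes Igf1 was called under 4 other settings: a filter of 5 FPKM (adjusted p = 0.045), upper quartile scaling (0.0357), a fit of the 90-day libraries alone (0.00828) and the libraries without those low in endothelial markers (0.044). Leaving out WT DEHP replicate 1 also called it (adjusted p = 0.0463), and the other 15 omissions did not, with adjusted p up to 0.143.

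Igfals, at chr17:24877844-24882011 on the plus strand, encodes the acid-labile subunit. At 28 days WT CMC livers held 71.1, 66.0 and 78.5 FPKM and WT DEHP livers 19.1, 25.2 and 18.8. KO livers held 62.2, 96.2 and 50.7 FPKM under CMC and 28.0, 20.7 and 22.0 under DEHP. Igfals had the largest called change of the 10 members at 28 days, and again no DEHP library reached a CMC library. It fell by 1.61 on the log2 scale over both genotypes (SE 0.13, limma adjusted p = 7.73e-10), with -1.73 in WT (adjusted p = 3.02e-07) and -1.49 in KO (adjusted p = 1.87e-06). At 90 days it was 47.6, 44.1, 33.8 and 46.2 FPKM in WT CMC, 41.7, 35.9, 42.8 and 27.7 in WT DEHP, 43.3, 43.3, 37.1 and 34.7 in KO CMC, and 33.6, 37.1, 30.3 and 37.6 in KO DEHP. These groups overlapped, and the change of -0.20 was not called (adjusted p = 0.273).

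For Ghr, Igf1 and Igfals the response to DEHP was itself different at the 2 times. The DEHP change at 90 days minus that at 28 days was 0.77 log2 for Ghr (SE 0.11, limma adjusted p = 1.77e-05), 1.17 for Igf1 (SE 0.14, adjusted p = 2.38e-06) and 1.41 for Igfals (SE 0.18, adjusted p = 5.3e-06). These were 3 of 10 members called in this contrast, each with a higher change at 90 days, where 4.99% of all genes tested were called in that direction. The other 7 were not, with Socs3 nearest at -1.08 (adjusted p = 0.0856). Length of treatment and the sex transcripts cannot be told apart here.

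**Figure D2:**
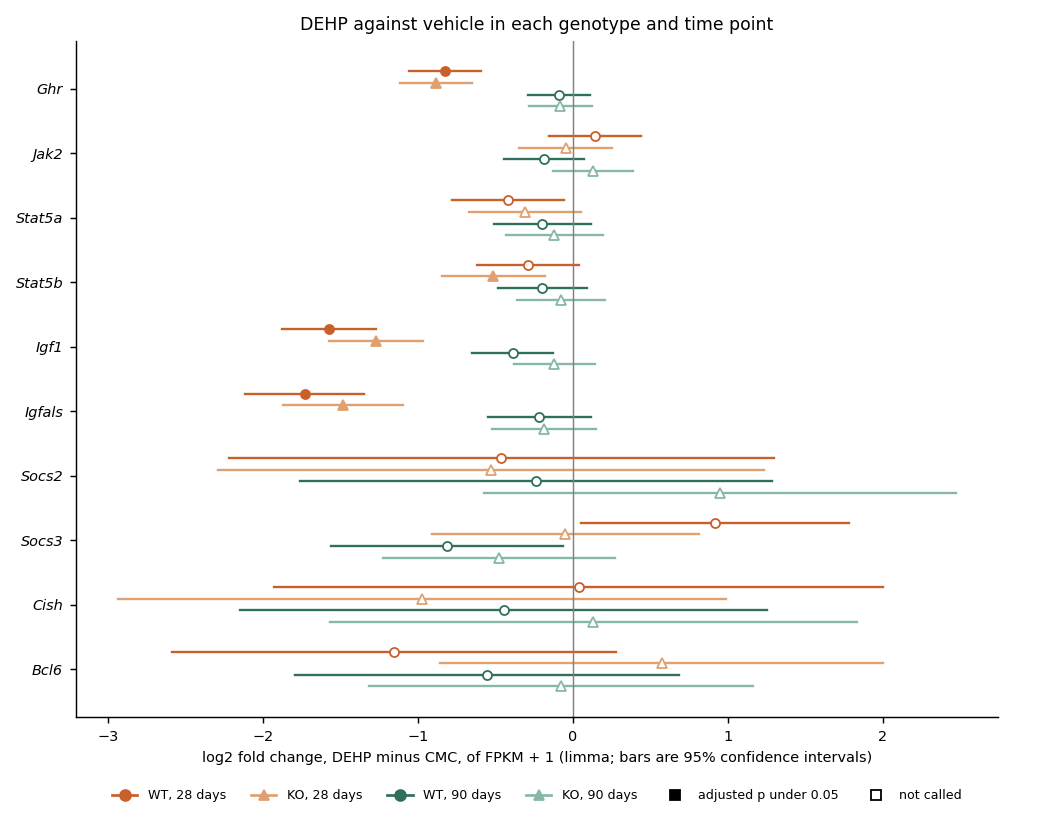
Log2 fold change of FPKM + 1, DEHP minus CMC, for each of the 10 genes in WT (circles) and KO (triangles) at 28 days (orange) and 90 days (green); bars are 95% confidence intervals from limma and filled symbols are called at an adjusted p under 0.05. Ghr, Igf1 and Igfals are filled in both genotypes at 28 days and Stat5b in KO alone (-0.51), no gene is filled at 90 days, and the intervals of Socs2, Cish and Bcl6 are the widest.

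The 28-day changes went with lower hepatocyte and stellate cell markers. The summed FPKM of 6 hepatocyte markers was 51124 to 61647 in WT CMC against 32261 to 38217 in WT DEHP, and 56181 to 56373 in KO CMC against 31620 to 35862 in KO DEHP. In limma over both genotypes 5 of the 6 hepatocyte markers fell, with a median of -0.68 log2, and 5 of 8 stellate markers fell, with a median of -0.50. Of all genes tested, 14.1% fell. The summed stellate markers were 121 to 237 FPKM in WT CMC, 68.7 to 129 in WT DEHP, 190 to 205 in KO CMC and 117 to 133 in KO DEHP. Of 11 Kupffer cell and macrophage, 9 endothelial, 3 lymphocyte and 2 neutrophil markers tested, 0 were called. Their part in the results for Ghr, Igf1 and Igfals was not tested, and in whole liver fewer cells of a type and less RNA per cell cannot be told apart. At 90 days 3 of 6 hepatocyte, 2 of 8 stellate and 0 of 11 Kupffer cell and macrophage markers fell, and 3 of 3 adipocyte markers rose. There 14.4% of all genes tested were called in either direction, most of them higher. The hepatocyte calls did not hold without the libraries with pancreas transcripts, where only replicate 4 was left of KO DEHP at 90 days. Without the libraries low in endothelial markers, 3 of 6 hepatocyte, 3 of 8 stellate and 4 of 11 Kupffer cell and macrophage markers fell and 2 of 3 adipocyte markers rose. The share of all genes called in that fit is not given here.

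Among the feedback inhibitors and Bcl6, libraries of a single group differed widely, and no effect of DEHP was called. The pooled within-group SD on the log2 scale was 1.28 for Cish, 1.15 for Socs2, 0.93 for Bcl6 and 0.56 for Socs3, at or above 99.6%, 99.5%, 99.3% and 97.8% of the 11213 genes tested. The median gene had 0.18 and Ghr 0.14, so the receptor was among the steadier genes (18.7% at or below it). Inside the single group of WT CMC at 90 days the highest Cish library was 42.6 times the lowest.

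Cish, at chr9:107296659-107302784 on the plus strand, encodes CIS. Its exons share 261 and 479 bases with the opposite-strand genes Gm17040 and Gm17041. At 28 days it was 0.53, 1.64 and 1.59 FPKM in WT CMC, 0.39, 1.08 and 2.91 in WT DEHP, 1.40, 13.9 and 2.11 in KO CMC and 1.31, 2.25 and 0.96 in KO DEHP. Only KO CMC replicate 6 passed 3 FPKM at that time. At 90 days it was 18.3, 2.72, 0.43 and 11.1 FPKM in WT CMC, 1.31, 7.99, 9.30 and 0.68 in WT DEHP, 2.03, 17.1, 0.58 and 0.82 in KO CMC and 1.66, 13.8, 1.19 and 1.64 in KO DEHP. Each 90-day group held at least 1 library above 7 FPKM and at least 1 below 2. Cish was not called at 28 days (-0.47 log2, 95% confidence interval -1.86 to 0.92, limma adjusted p = 0.642) or at 90 days (-0.16, interval -1.36 to 1.05, adjusted p = 0.903).

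Socs2, at chr10:95383903-95417321 on the minus strand, encodes the inhibitor whose loss in mice causes overgrowth. At 28 days it was 1.94, 2.79 and 9.60 FPKM in WT CMC, 1.12, 2.05 and 5.97 in WT DEHP, 1.72, 34.8 and 3.76 in KO CMC and 5.62, 6.86 and 1.97 in KO DEHP. At 90 days it was 18.8, 8.71, 2.15 and 13.1 FPKM in WT CMC, 16.1, 8.51, 8.15 and 1.95 in WT DEHP, 4.14, 13.1, 1.41 and 1.71 in KO CMC and 2.81, 16.6, 7.83 and 10.2 in KO DEHP. The highest of all, 34.8 FPKM, was the same KO CMC replicate 6 that was highest for Cish at 28 days. Socs2 was not called at 28 days (-0.50 log2, 95% confidence interval -1.74 to 0.75, limma adjusted p = 0.576) or at 90 days (0.36, interval -0.72 to 1.43, adjusted p = 0.723).

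Socs3, at chr11:117966079-117970336 on the minus strand, had values of 1.21, 3.42 and 2.46 FPKM in WT CMC, 11.9, 2.53 and 4.01 in WT DEHP, 2.90, 4.94 and 2.76 in KO CMC and 3.89, 3.62 and 2.49 in KO DEHP at 28 days. The 11.9 FPKM belonged to WT DEHP replicate 5, which was also the lowest library of its group for Stat5a and Stat5b and one of the 3 low in endothelial markers. At 90 days Socs3 was 10.9, 6.58, 5.45 and 3.54 FPKM in WT CMC, 4.87, 2.83, 2.56 and 2.45 in WT DEHP, 5.59, 6.86, 14.3 and 6.74 in KO CMC and 11.1, 4.73, 3.64 and 4.04 in KO DEHP. The groups overlapped in both genotypes at both times. Over both genotypes the changes were 0.43 log2 at 28 days (limma adjusted p = 0.287) and -0.65 at 90 days (95% confidence interval -1.17 to -0.12, adjusted p = 0.0966). Without KO DEHP replicate 1 the 90-day change was -0.80 (adjusted p = 0.0305), and the other 15 omissions left it uncalled.

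Bcl6, at chr16:23965050-23988866 on the minus strand, encodes the repressor, and its exons share 21 bases with the opposite-strand gene Gm37419. At 28 days it was 13.3, 2.93 and 13.3 FPKM in WT CMC, 2.93, 3.71 and 2.91 in WT DEHP, 1.98, 1.43 and 2.18 in KO CMC and 3.35, 2.86 and 3.51 in KO DEHP. The KO DEHP libraries were all above the KO CMC libraries, and the WT groups overlapped at 2.93 FPKM. At 90 days Bcl6 was 7.54, 6.82, 23.1 and 2.67 FPKM in WT CMC, 15.8, 1.49, 1.09 and 13.5 in WT DEHP, 19.0, 7.87, 13.9 and 14.0 in KO CMC and 13.8, 4.12, 19.5 and 19.7 in KO DEHP. Bcl6 was not called at either time over both genotypes (-0.29 and -0.31 log2, limma adjusted p = 0.696 and 0.697). The difference between the genotypes' responses at 28 days was 1.73 (95% confidence interval -0.30 to 3.76, adjusted p = 1).

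At 90 days 0 of 10 members were called over both genotypes, where limma called 14.4% of all genes tested, of which 71.7% were higher (50.8% under upper quartile scaling). There 2 of 10 members (Igf1 and Socs3) had an unadjusted p under 0.05 in limma, as did 3017 of the 11213 genes tested. Within WT and within KO at 90 days, 0 members were called against 6.8% and 5.65% of all genes. At 28 days 3 members fell in WT, where 6.17% of all genes fell, and 4 fell in KO, where 8.77% fell. At 28 days 4 members lay wholly below the controls in WT, as did 11% of all genes, and 5 in KO, as did 22.5%. Bcl6 lay wholly above them in KO, as did 19.2% of all genes. Over both genotypes together, 4 members lay wholly below at 28 days, against 5.87% of all genes. At 90 days Igf1 did so in WT, as did 4.58% of all genes.

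The macrophage knockout of Pparg left no called difference in the axis. In the mean of KO minus WT over agent and time, 0 of 10 members were called by limma, where 0.392% of all genes were called. An unadjusted p under 0.05 was found for 0 members and for 1419 of the 11213 genes tested. The values were -0.01 log2 for Ghr, -0.04 for Igf1 and -0.03 for Igfals. The genotype by DEHP difference was called for 0 members at 28 days, where 0.0178% of all genes were called, and for 0 members at 90 days, where 0% were. The limma adjusted p of the members ran from 0.627 to 0.963 in KO against WT and from 0.908 to 1 in the genotype by DEHP contrasts. A p that misses the threshold does not show that the genotypes were alike or responded alike.

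Several members varied together from library to library. Each library's deviation from its group mean was correlated between members within each time, over 45 pairs and 2 times, 90 relations in all, with exact two-sided permutation within groups and Benjamini-Hochberg adjustment over the 90. The smallest possible p was 0.000772 at 28 days and 3.01e-06 at 90 days. Of the 90 relations, 5 passed with Pearson's r, 1 at 28 days and 4 at 90 days, and 1 of these passed with Spearman's rho.

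Libraries high in Cish were high in Socs2 at both times. At 28 days r was 0.93 (n = 12 libraries, exact permutation p = 0.00154, adjusted 0.0401) and rho 0.87 (exact p = 0.00231, adjusted 0.0738). Without the 2 libraries most extreme for Socs2, r was 0.91. Libraries extreme only for the other gene of a pair were not left out, here or below. At 90 days r was 0.78 (n = 16 libraries, exact permutation p = 0.00266, adjusted 0.0478) and rho 0.74 (exact p = 0.00521, adjusted 0.0794). There r was 0.69 without the 2 libraries most extreme for Socs2 and 0.77 without the 5 with pancreas transcripts.

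At 90 days Cish ran opposite to Bcl6 and Stat5a. For Cish and Bcl6 r was -0.80 (n = 16 libraries, exact permutation p = 0.00165, adjusted 0.0401) and rho -0.75 (exact p = 0.00369, adjusted 0.0794). For this pair r was -0.79 without the 2 libraries most extreme for Cish and -0.70 without those with pancreas transcripts. At 28 days r for this pair was -0.31 (n = 12, exact permutation p = 0.201, adjusted 0.468). For Stat5a and Cish r at 90 days was -0.83 (n = 16 libraries, exact permutation p = 0.000567, adjusted 0.0401) and rho -0.81 (exact p = 0.00246, adjusted 0.0738). Here r was -0.72 without the 2 libraries most extreme for Stat5a and -0.93 without those with pancreas transcripts. At 28 days r for Stat5a and Cish was -0.24 (n = 12, exact permutation p = 0.478, adjusted 0.72).

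Igfals and Socs2 were correlated at 90 days, with r of 0.82 (n = 16 libraries, exact permutation p = 0.00178, adjusted 0.0401) and rho of 0.81 (exact p = 0.000521, adjusted 0.0469). This r was 0.68 without the 2 libraries most extreme for Igfals and 0.83 without those with pancreas transcripts. At 28 days the pair gave r of 0.60 (n = 12, exact permutation p = 0.229, adjusted 0.493). Igf1 and Igfals did not pass within groups, at 0.77 at 28 days (n = 12, exact permutation p = 0.0255, adjusted 0.169) and 0.73 at 90 days (n = 16, exact permutation p = 0.0106, adjusted 0.101), and the second was 0.28 without the libraries with pancreas transcripts.

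**Figure D3:**
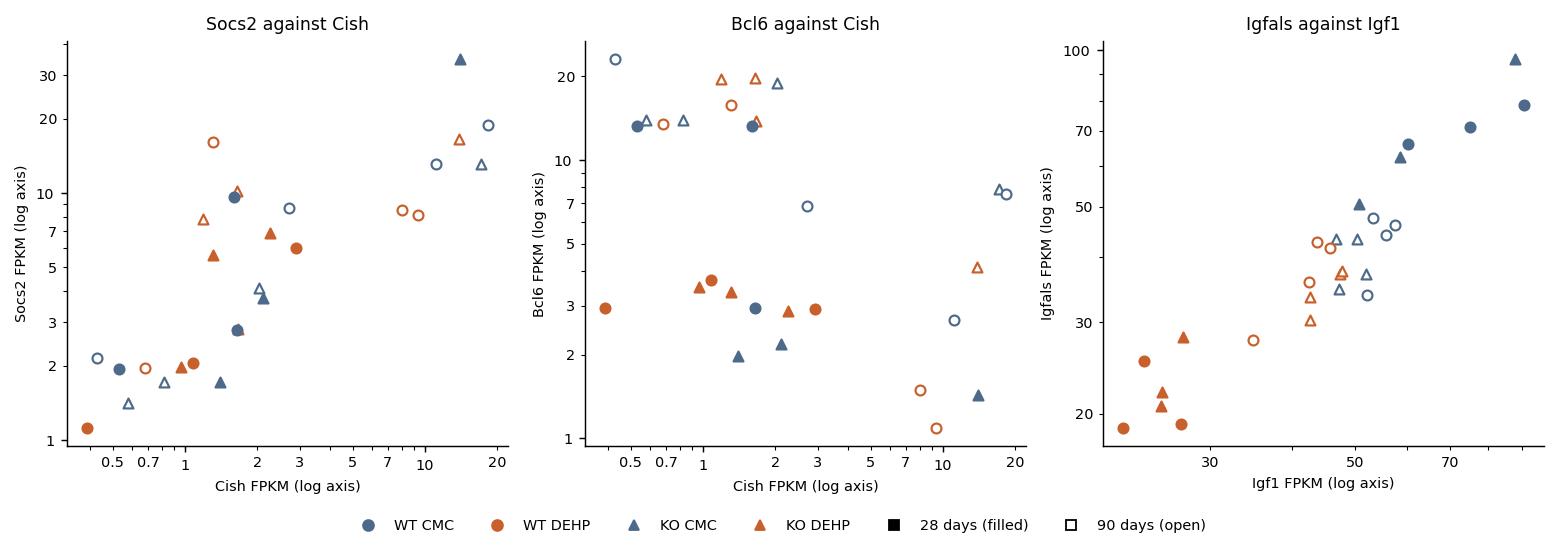
FPKM of member pairs in the 28 libraries on log axes, 1 symbol per library; blue is CMC, orange DEHP, circles WT, triangles KO, filled 28 days and open 90 days. Left, libraries high in Cish are high in Socs2, up to 34.8 FPKM of Socs2; middle, the 90-day libraries with Cish above 5 FPKM have Bcl6 below 8 FPKM; right, the 28-day DEHP libraries sit at the low end of both Igf1 and Igfals.

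The genes most like each member were taken by Pearson's r over the 28 libraries after the mean of each time was subtracted, among 10341 genes with a mean of at least 1 FPKM. These are descriptions that include the group differences, and the libraries share their scaling. Ghr was most like Acadsb (r = 0.94), an acyl-CoA dehydrogenase of mitochondria, Cyp4f14 (0.94), a fatty acid hydroxylase, and Serpina1c (0.93), an α1-antitrypsin gene. In that order r with Ghr was 0.97, 0.97 and 0.98 at 28 days alone and 0.79, 0.64 and 0.43 at 90 days alone. Igf1 was most like Igfals (0.96), the plasma protein gene Ahsg (0.94) and Serpina1e (0.94), and Igfals most like Igf1, Serpina1e (0.94) and Cyp4f14 (0.94). Cish was most like Onecut1 (0.93), the liver transcription factor HNF6, Arid5b (0.91) and Gbp11 (0.86). Socs2 was most like Onecut1 (0.83) and B4galt1 (0.78), then Cish (0.78).

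Onecut1 gave r with Cish of 0.86 at 28 days and 0.95 at 90 days. It had 1.23 to 39.6 FPKM at 28 days and 1.68 to 64.4 FPKM at 90 days. Stat5a was most like Baiap2 (0.84), Pcnx3 (0.80) and Klf15 (0.80), and Stat5b most like Pcdh1 (0.84), Ngfr (0.80) and Herpud1 (0.77). For Jak2 the nearest were Ssfa2 (0.77), Cul3 (0.75) and Bnip3l (0.75). For Socs3 they were Stat3 (0.69), 2410004B18Rik (0.68) and 2200002D01Rik (0.68), and for Bcl6 they were Sbk1 (0.66), Cebpb (0.61) and Slc25a47 (0.61). Bcl6 and Sbk1 gave 0.35 at 28 days and 0.75 at 90 days. Bcl6 and Socs3 had the weakest nearest genes of the 10.

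The wider pathway was read from gene lists that include the members, and Prlr and Cux2 each stand in a list by role and in the female-biased list. The list changes at 28 days also went with the lower hepatocyte and stellate markers given above, whose part was not tested. Over all genes tested, 14.1% fell and 17.2% rose at 28 days. For 90 days 14.4% were called in either direction, most of them higher. Among 19 tested receptors, kinases and STATs, 4 fell over both genotypes at 28 days and 0 rose. Besides Ghr, Stat5a and Stat5b the fourth was Prlr, the prolactin receptor, a relative of Ghr that also signals through JAK2 and STAT5. Prlr went from 80.4 ± 7.99 FPKM (SD, n = 6) under CMC to 30.1 ± 6.41 (SD, n = 6) under DEHP (-1.41 log2, limma adjusted p = 1.41e-06). At 90 days it was 12.8 ± 4.37 and 14.0 ± 4.71 FPKM (SD, n = 8 each) and was not called. There 1 gene of the list fell, Stat3, the STAT of IL6 signalling (-0.38, limma adjusted p = 0.0465). Under upper quartile scaling 8 genes of the list fell at 28 days and 5 at 90 days. That scaling also moved calls over the whole table toward lower, and the share of all genes that fell under it is not given here. The median of the list was -0.14 log2 at 28 days and -0.12 at 90 days, against -0.03 and 0.01 over all genes tested.

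Of 15 tested negative regulators, 0 fell at 90 days and 2 fell at 28 days, close to the 14.1% of all genes tested that fell. They were Socs5 (-0.30 log2, limma adjusted p = 0.0166), another member of the SOCS family, and Pias1 (-0.28, adjusted p = 0.0319), an inhibitor of STAT DNA binding. Under upper quartile scaling, which moved calls over the whole table toward lower, 4 fell at 28 days and 1 at 90 days. The list's median was -0.13 at 28 days and -0.11 at 90 days.

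Of 11 tested genes of the IGF system, 5 fell at 28 days and 1 rose, where 14.1% of all genes tested fell and 17.2% rose. Igfbp4, a binding protein for IGFs, went from 804 ± 39.1 to 482 ± 33.5 FPKM (SD, n = 6 each; -0.74 log2, limma adjusted p = 8.27e-09). Igfbp7 (-0.53, adjusted p = 0.0185) and Igfbp3 (-0.44, adjusted p = 0.0384) also fell. IGFBP3 is the binding protein that forms the blood complex with IGF1 and the acid-labile subunit. Igf2r, the receptor that clears IGF2, rose (0.40, adjusted p = 0.0107). At 90 days Igfbp2 rose from 222 ± 85.9 to 409 ± 80.2 FPKM (SD, n = 8 each; 0.94 log2, adjusted p = 0.00125) and Igfbp4 fell (-0.23, adjusted p = 0.0104). The list's median was -0.44 at 28 days and -0.05 at 90 days.

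Of 11 transcription factors of the growth hormone programme, 4 fell at 28 days and 0 rose. Over all genes tested, 14.1% fell and 17.2% rose. Cux2, a factor of the female liver, went from 2.70 ± 1.03 to 0.30 ± 0.46 FPKM (SD, n = 6 each; -1.52 log2, limma adjusted p = 1.82e-08). Hnf4a, a central factor of hepatocyte identity, went from 165 ± 16.7 to 99.5 ± 6.37 FPKM (SD, n = 6 each; -0.72, adjusted p = 2.74e-05). Cebpa (-0.58, adjusted p = 0.000173) and Trim24 (-0.55, adjusted p = 0.0435) fell as well. At 90 days Cux2 was at 0 to 0.08 FPKM in all 16 libraries, Tox rose (0.47, adjusted p = 0.00667) and Cebpb fell (-0.59, adjusted p = 0.0272).

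Genes that the sexes express differently through growth hormone moved in both directions. Of 24 tested male-biased genes, 10 fell and 6 rose at 28 days, where 14.1% of all genes tested fell and 17.2% rose. At 90 days 12 fell and 2 rose, where 14.4% of all genes tested were called in either direction, most of them higher. Serpina1e, an α1-antitrypsin gene, went from 404 ± 130 to 1.81 ± 0.61 FPKM at 28 days (SD, n = 6 each; -7.14 log2, limma adjusted p = 2.51e-16) and from 8910 ± 1685 to 3292 ± 1358 FPKM at 90 days (SD, n = 8 each; -1.54, adjusted p = 4.82e-05). Slco1a1, an organic anion transporter (-4.40, adjusted p = 1.02e-10), and Mup3, a major urinary protein gene (-3.57, adjusted p = 1.42e-10), fell at 28 days. At 90 days Serpina12, which encodes the serpin vaspin, went from 22.9 ± 6.20 to 2.29 ± 1.68 FPKM (SD, n = 8 each; -3.02, limma adjusted p = 1.67e-08). The glutathione transferase gene Gstp1 (-0.97, adjusted p = 0.000129) and the P450 gene Cyp2u1 (-0.69, adjusted p = 0.0017) also fell at 90 days. The fatty acid hydroxylase gene Cyp4a12a rose from 0.33 ± 0.23 to 160 ± 34.4 FPKM at 28 days (SD, n = 6 each; 6.91, adjusted p = 1.97e-23) and from 81.2 ± 5.96 to 252 ± 32.3 FPKM at 90 days (SD, n = 8 each; 1.62, adjusted p = 1.1e-10). Cyp4a12b (6.24 and 2.10) and, at 28 days, Cyp2d9 (1.72) rose too.

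Of 21 tested female-biased genes, 14 fell and 2 rose at 28 days, where 14.1% of all genes tested fell and 17.2% rose. At 90 days 1 fell and 3 rose, where 14.4% of all genes tested were called in either direction, most of them higher. The median of this list was -1.52 log2 at 28 days, against -0.03 over all genes tested. Cyp3a41a, a cytochrome P450 gene, went from 573 ± 269 to 8.20 ± 13.0 FPKM at 28 days (SD, n = 6 each; -6.84 log2, limma adjusted p = 2.12e-11), and Cyp2c69 (-5.15), Cyp3a44 (-4.43), the sulfotransferase gene Sult3a1 (-3.23) and Cyp3a41b (-1.97) also fell. Cyp3a41a was at most 0.07 FPKM in every 90-day library. At 90 days Cyp39a1 fell (-1.38, adjusted p = 4.4e-06), and Cyp2b9 (0.92), Cyp2a22 (0.88) and Cyp2a4 (0.66) rose. Values of the Cyp2a, Cyp3a, Cyp4a12, Mup and Serpina1 genes are uncertain, since reads of near-identical copies can be split between them.

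Of 25 acute phase genes of IL6 and STAT3, the branch that SOCS3 restrains, 7 fell and 2 rose at 28 days. At 90 days 9 fell and 1 rose. Over all genes tested, 14.1% fell and 17.2% rose at 28 days. For 90 days 14.4% were called in either direction, most of them higher. Crp (-0.87 log2, limma adjusted p = 2.63e-08), the IL6 receptor gene Il6ra (-1.21, adjusted p = 2.37e-05), the hepcidin gene Hamp (-2.60, adjusted p = 7.2e-05) and the fibrinogen gene Fgb (-0.50, adjusted p = 0.0118) fell at 28 days, and Il1rn (1.57, adjusted p = 4.25e-06) and Orm3 (1.78, adjusted p = 0.000838) rose. At 90 days Saa3 (-2.37), Steap4 (-1.11), the hemopexin gene Hpx (-0.92), Itih4 (-0.75), Fga (-0.48) and Cp (-0.38) fell. The medians of the list were -0.23 at 28 days and -0.46 at 90 days. Without the libraries with pancreas transcripts only replicate 4 was left of KO DEHP at 90 days. In that fit the 21 genes named here and above for 90 days kept their direction. The calls of Stat3, Igfbp4, Tox, Cebpb, Fga and Itih4 did not hold. Without the libraries low in endothelial markers, Stat3 at 90 days and Pias1, Igfbp3 and Trim24 at 28 days were not called.

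**Figure D4:**
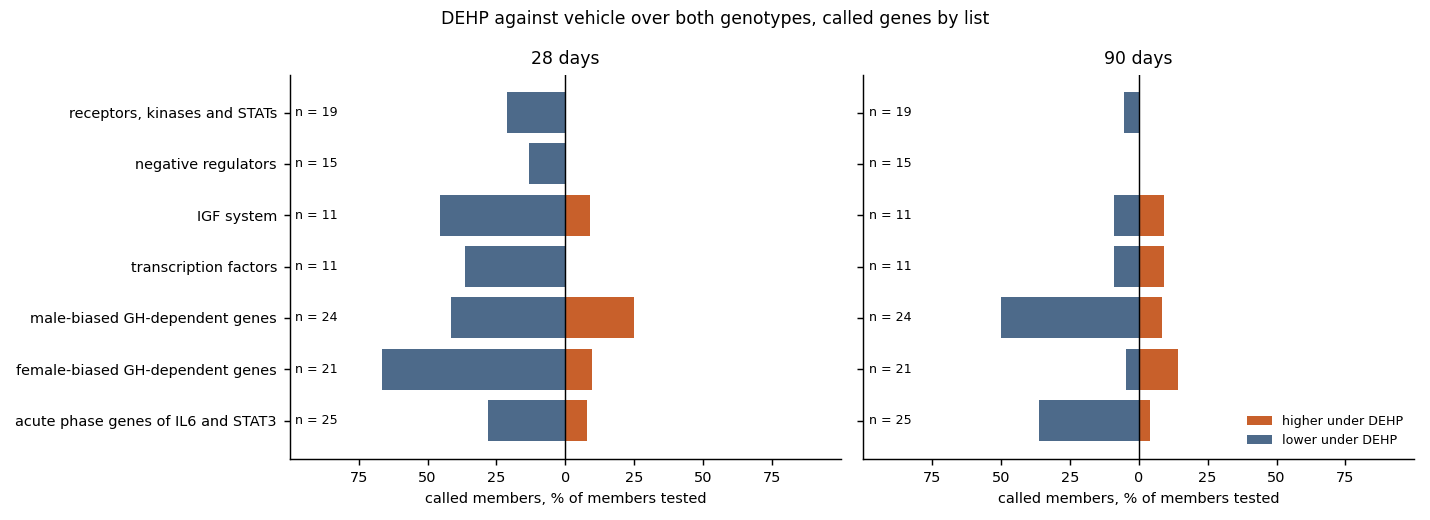
Share of tested genes of each list called higher (orange, to the right) or lower (blue, to the left) under DEHP over both genotypes, in percent of the n genes tested, at 28 days and at 90 days. At 28 days female-biased genes have the longest bar to the left (14 of 21), and at 90 days male-biased genes do (12 of 24).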

How the data were processed

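Gene expression in 28 liver libraries was deposited by the authors as 1 table of FPKM, which the submitters' processing notes tie to Cuffdiff and to mm10/GRCm38 without versions; the aligner and annotation are not given in the sources used here. Library columns were matched to samples by name. The 10 members, the pathway and marker lists and the tests were chosen with earlier results of these data known. The 11213 of 17792 genes that reached 1 FPKM in 3 or more libraries were fitted as log2(FPKM + 1) with limma 3.58.1 (R 4.3.3, variance trend, 8 group means, 20 residual degrees of freedom), without a replicate block, two-sided, with Benjamini-Hochberg adjustment within each of 10 comparisons. FPKM are not counts, so no count model was used, and values are scaled within a library, so a few very abundant transcripts can lower all others.

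Named were all 10 members, up to 6 called genes of each pathway list at each time by smallest adjusted p, and the 3 genes most like each member; 1 gene this rule names is not reported here. Alternatives were a pseudocount of 0.1, no filter, a filter of 5 FPKM, upper quartile scaling, a replicate block, fits within one time, and omission of libraries. The fit was tested on simulated data. Replicate numbers are shared between groups, and deviations of same-numbered libraries correlated above 0.1 in all 4 pairs of WT DEHP and WT CMC at 90 days (0.22 to 0.665), where both libraries numbered 4 hold pancreas transcripts, and in no other DEHP comparison within a genotype. Positions and promoter windows are RefSeq's on GRCm38.p6, matched by symbol, and exon overlaps are from GENCODE M21.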

Additional observations from a re-analysis of the deposited data

Results flagged for a closer look

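Within groups of 4 libraries at 90 days, 40 sets of member values were checked for a single library far from the rest. The rule's rate of about 1 in 20 by chance assumes normally distributed values in independent sets. These were unlogged FPKM and the sets share the same 16 libraries, so that rate is not a measure of chance here. It flagged 5 libraries, each the highest of its group. For Socs3 these were WT DEHP replicate 1 at 4.87 FPKM, KO CMC replicate 3 at 14.26 FPKM and KO DEHP replicate 1 at 11.12 FPKM. For Cish they were KO CMC replicate 2 at 17.09 FPKM and KO DEHP replicate 2 at 13.79 FPKM. KO DEHP replicates 1 and 2 are among the 5 libraries with pancreas transcripts, whose part in these values was not tested.

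The response to DEHP differed between 90 and 28 days, by the interaction term of limma, for Ghr (0.77 log2, adjusted p = 1.77e-05), Igf1 (1.17, adjusted p = 2.38e-06) and Igfals (1.41, adjusted p = 5.3e-06). Time and the sex transcripts cannot be told apart in these contrasts.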

How the results depend on the processing

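The calls of Ghr, Igf1 and Igfals at 28 days held under every alternative run, and no called value changed sign. Without the pancreas libraries, 484 genes were called in WT and 272 in KO at 90 days (762 and 633 with them), 898 over both genotypes (1617), and 1 and 30 for the genotype by DEHP difference at 28 and 90 days (2 and 0). That difference at 28 days was called for 0 genes with a pseudocount of 0.1, a filter of 5 FPKM or a fit within the time, and for 1 with the replicate block. KO against WT called 44 genes, 26 with no filter, 23 with a filter of 5 FPKM, 25 with the replicate block and 15 without the libraries low in endothelial markers. At 90 days 1 member, Igf1, was called in place of 0 in WT and over both genotypes with a filter of 5 FPKM, a fit within the time or the libraries low in endothelial markers left out (chosen after seeing the data), and over both genotypes with upper quartile scaling; the cause was not tested. The replicate block changed no call of a member. Jak2 did not reach a filter of 5 FPKM. Leaving out 1 library at a time gave 379 to 893 called genes in WT and 253 to 540 in KO at 90 days, 1272 to 1748 over both genotypes with 0 to 1 members, 1 to 3 and 0 to 2 for the genotype by DEHP differences, and 18 to 66 for KO against WT. Over both genotypes at 28 days, 4 to 5 members were called. Socs3 was called without WT DEHP replicate 6 in WT at 28 days (1.31 log2, limma adjusted p = 0.0496) and in the DEHP by time contrast (-1.28, 0.0347), and in the latter also without KO DEHP replicate 1 at 90 days (-1.24, 0.0352). Depth is unknown, so precision at low FPKM is limited by the number of libraries.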
